A study of Mus musculus with 18 samples.

Results

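Mitochondrial oxidative phosphorylation was followed through 90 nuclear genes in livers of mice whose dams ate a high-protein diet in pregnancy, a high-protein diet in lactation, or a control diet throughout. The genes were taken by symbol: every gene of the array platform whose symbol begins with Nduf, Uqcr, Cox4, Cox5, Cox6, Cox7, Cox8 or Atp5, together with Sdha, Sdhb, Sdhc and Sdhd. They are 90 of the 18193 genes that have a probe set carrying 1 symbol, and each gene was read from the probe set with the highest mean log2 signal over the 18 arrays. By complex, 34 belong to complex I (6 core and 28 accessory subunits), 4 to complex II, 8 to complex III, 19 to complex IV and 17 to complex V (5 of the F1 part and 12 of the Fo part and stalk), and the Nduf prefix adds 8 assembly factors of complex I that are not subunits of it. Ndufa4, Ndufa4l2 and Cox7a2l were counted with complex IV. Of the 90, 85 passed the signal filter, a mean log2 signal of at least 5.85.

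The livers came from offspring of the outbred mouse line DUK, and the diets were isoenergetic with 40% protein by weight in the high-protein feed and 20% in the control feed. The HP pregnancy group was exposed to 40% protein in pregnancy and 20% in lactation, the HP lactation group to 20% in pregnancy and 40% in lactation, and the control group to 20% in both. Each group was sampled at postnatal day 150 and at postnatal day 21, with 3 arrays of pooled liver RNA for each of the 6 combinations of diet and day. The labels give no sex and differ on how many livers entered a pool (3 to 5), so the p-values measure the spread between pools.

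Oxidative phosphorylation passes electrons from NADH through complex I, or from succinate through complex II, to coenzyme Q, and then through complex III, cytochrome c and complex IV to oxygen. Complexes I, III and IV pump protons across the inner mitochondrial membrane, and complex V, the ATP synthase, uses the resulting gradient to make ATP. In the hepatocyte this supply pays for urea synthesis and glucose output, among other tasks. The transcription factors NRF1 and GABPA are known to act on many nuclear genes of these complexes.

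The promoters of 4 members on which the results below turn are shown as the 250 bases before a RefSeq start site of each gene (build GRCm38.p6), read 5′ to 3′ on the gene's strand. They are Ndufa10 and Ndufa8, whose signals fell with age in every diet group, Sdha, whose signal rose, and Ndufaf4, whose signal was higher in HP lactation than in control livers on both days. Capitals mark matches to the NRF1 motif, spelled GCGCA, any base, GCGC, on either strand, of which the Ndufa10 window holds 0, the Ndufa8 window 1, the Sdha window 3 and the Ndufaf4 window 1. The windows lie at chr1:92473759-92474008, minus strand, at chr2:36049339-36049588, minus strand, at chr13:74350241-74350490, minus strand, and at chr4:24897833-24898082, plus strand. The Ndufa10 window precedes a start site that lies inside the annotated gene, so that 67 of its bases are within the gene, and the other 3 windows lie outside their genes.
Ndufa10: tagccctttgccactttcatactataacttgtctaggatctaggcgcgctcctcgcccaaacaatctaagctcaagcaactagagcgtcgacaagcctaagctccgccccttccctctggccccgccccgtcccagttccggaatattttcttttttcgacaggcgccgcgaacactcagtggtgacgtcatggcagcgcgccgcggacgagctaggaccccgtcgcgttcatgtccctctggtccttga
Ndufa8: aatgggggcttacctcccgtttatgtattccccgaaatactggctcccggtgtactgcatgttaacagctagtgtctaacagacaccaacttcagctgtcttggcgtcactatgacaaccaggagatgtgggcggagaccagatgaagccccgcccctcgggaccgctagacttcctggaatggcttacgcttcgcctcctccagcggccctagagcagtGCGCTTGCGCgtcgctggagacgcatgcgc
Sdha: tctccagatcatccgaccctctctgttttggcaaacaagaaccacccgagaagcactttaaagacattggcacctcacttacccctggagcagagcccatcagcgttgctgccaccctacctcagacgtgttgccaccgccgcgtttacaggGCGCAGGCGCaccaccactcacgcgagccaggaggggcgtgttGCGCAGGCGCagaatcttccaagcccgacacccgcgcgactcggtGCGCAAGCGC
Ndufaf4: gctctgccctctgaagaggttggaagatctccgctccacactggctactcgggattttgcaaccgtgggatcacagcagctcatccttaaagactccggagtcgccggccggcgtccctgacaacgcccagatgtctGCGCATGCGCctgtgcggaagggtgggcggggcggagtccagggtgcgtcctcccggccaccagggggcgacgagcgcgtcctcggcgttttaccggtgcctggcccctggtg
Over all members, 79 such windows of 74 genes were at hand, and 13 of them (16.5%) held the NRF1 motif, against 3.74% of 32851 windows of all genes. The motif CCGGAAG of the ETS family, to which GABPA belongs, was in 14 member windows (17.7%) and in 6.91% of all windows. The SP1 motif GGGCGG was in 39.2% of member windows and 32.7% of all windows. Matches were counted on both strands and are a description of these letters. Among members that changed with age in every diet group, Ndufa8, which fell, and Sdha, which rose, carried the NRF1 motif. The windows of Ndufa10, Uqcrc1, Ndufab1 and Ndufc1, which fell, and of Ndufb3, which rose, held 0 matches each. A relation of the motif to these changes was not tested.

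Markers of the labelled tissue were high: the 6 hepatocyte genes on the array all passed the filter, with a mean albumin (Alb) signal of 30109, while Adipoq of white fat was at 18.9. Of 6 muscle genes 1 passed the filter, Mylpf at 97.9, with Ckm at 31.1 and Myh4 at 7.60, and of 4 brown fat genes 1 passed, Elovl3 at 1438, with Ucp1 at 9.29. The summed signal of these 4 genes was 3637 to 21061 at day 150 and 92.8 to 659 at day 21, without overlap. At day 150 the summed signal of 7 Kupffer cell genes was 9698 to 15930, against 6544 to 11728 at day 21, and that of 6 stellate cell genes was 10877 to 16103 at day 150, against 14877 to 19731 at day 21. Day 150 and day 21 also differed completely in a control measure of the arrays, the ratio of the 3′ to the 5′ probe set of Gapdh, which was 1.30 to 1.80 at day 150 and 0.82 to 0.99 at day 21. The same ratio of Actb was 4.06 to 6.50 at day 150 and 1.96 to 3.15 at day 21. These ratios move with RNA integrity and labelling, and their part in the age results was not tested beyond the fit given below. Xist signal stood far above the other arrays on 2 arrays, replicate 4 of HP lactation at day 150 and replicate 2 of control at day 21, and results that change without these arrays are also given without them.

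Most members had strong signals. Of the 85 members that passed the filter, 71 lay among the strongest 10% of the 11018 genes tested. Weak members also passed, among them Ndufb1 (mean signal 220, and 53.9 to 333 between arrays), Cox8c (207) and Cox7c (315). Mean log2 signal over complex I members was 13.21 ± 0.09 in HP pregnancy, 13.21 ± 0.06 in HP lactation and 13.36 ± 0.03 in control at day 150, and 13.26 ± 0.04 in HP pregnancy, 13.20 ± 0.12 in HP lactation and 13.43 ± 0.10 in control at day 21 (SD, n = 3 arrays each). Over complex V members it was 14.00 ± 0.09, 13.98 ± 0.15 and 14.13 ± 0.08 in HP pregnancy, HP lactation and control at day 150, and 13.97 ± 0.11, 13.89 ± 0.14 and 14.15 ± 0.07 in these groups at day 21. On both days the control mean was the highest of the 3 in all 5 complexes, as the plot of complexes by array shows. Signals of different probe sets are not on a common scale, so levels are not ranked between genes.

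**Figure D1:**
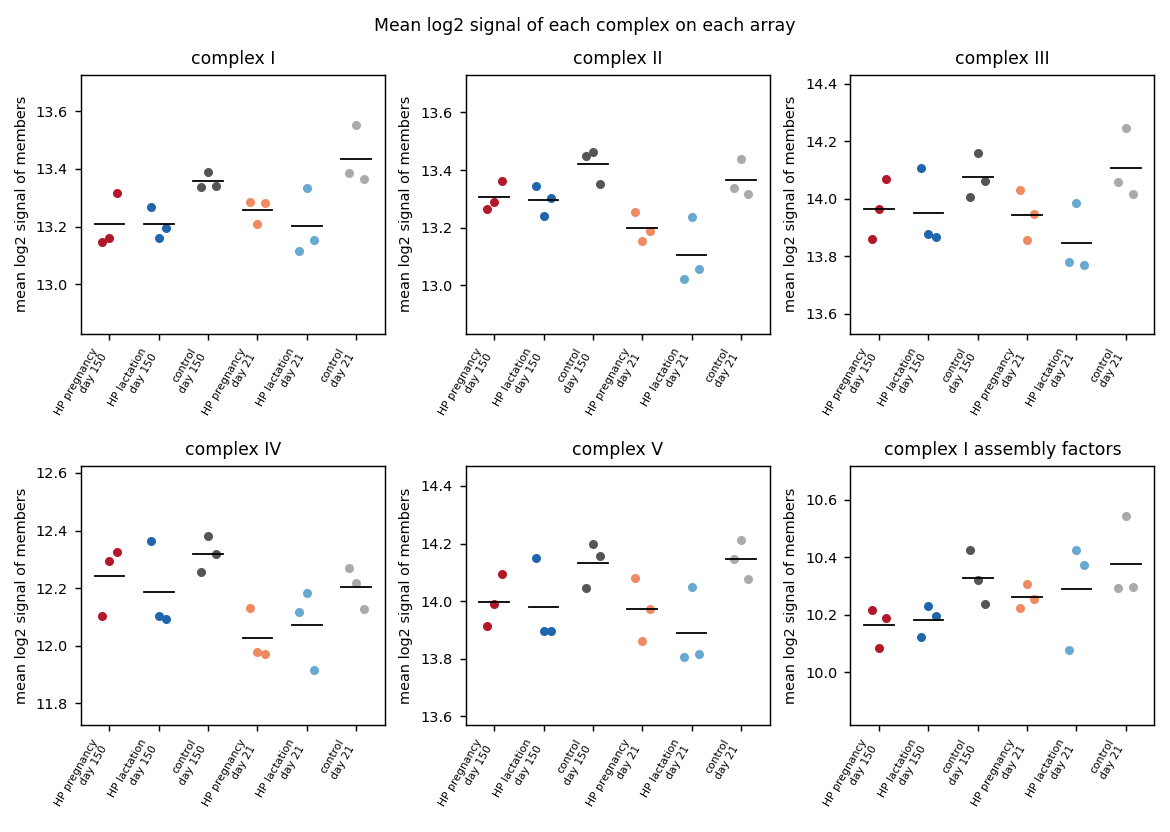
Mean log2 signal of the members of each complex (y axis) on each of the 18 arrays, by diet and day (x axis), with points for arrays and bars for group means; every panel spans 0.9 log2 units. Control arrays lie highest on average on both days in complexes I to V, with complex I at 13.36 at day 150 and 13.43 at day 21.

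The 5 members under the filter were Ndufb4 (signal 22.0), an accessory subunit of complex I whose other probe sets carry several symbols, and 4 genes read with complex IV. These 4 were Cox4i2 (21.5) and Cox8b (24.5), isoforms known from lung and from heart and muscle, Cox7b2 (5.20), and Ndufa4l2 (11.5), a relative of Ndufa4. The heart and muscle isoforms Cox6a2 and Cox7a1 passed the filter at mean signals of 74.0 and 115, and neither was called in any comparison. Another 10 probe sets that meet the symbol rule carry several symbols and were left out, so that Ndufa11 and Ndufs6 have no value here. Cox7b was not analysed here.

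The first question was whether a high-protein diet of the dam changed these genes in the offspring. No member passed the threshold, an adjusted p of 0.05, in any of the 4 comparisons with control, although most members had lower signals in both high-protein groups on both days. At day 21 complexes I to V had nearly the same median difference in each comparison. At day 150 their medians ran from -0.14 in complex I to -0.08 in complex IV in HP pregnancy. In HP lactation at day 150 they ran from -0.14 in complex III to -0.11 in complex I. Other genes of strong signal were lower as well. At an unadjusted p under 0.05 (limma) 18 members in HP pregnancy (21.2%, against 9.98% of all genes and 14.5% of the strongest other genes) and 45 in HP lactation (52.9%, against 14.3% and 31.4%) differed at day 21. At day 150 they were 19 in HP pregnancy (22.4%, against 20% of all genes and 23.8% of the strongest other genes) and 13 in HP lactation (15.3%, against 7.72% and 6.69%). Ndufaf4, an assembly factor of complex I, instead had higher signals in HP lactation livers than in control livers on both days.

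Some cell type markers differed with diet too. At day 21 the summed signal of the 6 hepatocyte genes was 143384 to 177911 in HP pregnancy and 145439 to 190427 in HP lactation, both wholly below the 193296 to 203337 of control. The mean log2 signal of the strongest other genes showed the same order. It was 13.26 to 13.34 in HP pregnancy and 13.16 to 13.33 in HP lactation, against 13.35 to 13.43 in control, so this difference was not particular to hepatocyte markers. The sum of 6 endothelial genes was 8356 to 9025 in HP lactation at day 21, below the 9559 to 10330 of control, and 11983 to 15121 in HP pregnancy at day 150, above the 9700 to 11257 of control. Sums of cholangiocyte and B cell genes in HP pregnancy and of B cell and brown fat genes in HP lactation also stood apart from control at day 21, as did brown fat genes in HP lactation at day 150. Of these 3 lists 1 or 2 genes each passed the filter. The part of these markers in the members' differences was not tested.

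At day 21 the HP lactation minus control difference had a median of -0.26 over the 85 members on the log2 scale, with 79 of 85 below 0. The median was 0.00 over all genes tested and -0.20 over the 1031 strongest other genes. By complex the medians were -0.26 in complex I, -0.26 in complex II, -0.27 in complex III, -0.28 in complex IV and -0.26 in complex V. Of all genes tested, 0.172% were called in this comparison (limma, adjusted p under 0.05), and 0 of 85 members were. All 3 HP lactation arrays lay below all 3 control arrays for 34 of 85 members (40%), against 8.71% of all genes and 30.4% of the strongest other genes. Without the arrays with Xist signal these were 37 of 85, against 13% and 36.5%. The members with the smallest p in each complex were Ndufv3, an accessory subunit of complex I (-0.38 ± 0.11, SE), Sdha (-0.39 ± 0.12), Uqcr11 of complex III (-0.38 ± 0.12), Cox5b of complex IV (-0.34 ± 0.12) and Atp5k of complex V (-0.33 ± 0.11), with limma adjusted p between 0.16 and 0.23. The other strong probe set of Sdha differed by -0.17.

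The HP pregnancy minus control comparison at day 21 shares its control arrays with the one above, and its difference had a median of -0.18 over the members, with 79 of 85 below 0. The median was 0.01 over all genes and -0.12 over the strongest other genes, and 0% of all genes were called. Signals of 32 of 85 members (37.6%) lay below control on all arrays, against 7.74% of all genes and 26.9% of the strongest other genes. Without the arrays with Xist signal 34 of 85 did, against 12.7% and 32.2%, and 73 of 85 differences were below 0. Ndufb10, an accessory subunit in the membrane arm of complex I, had signals of 6368, 6643 and 6317 in HP pregnancy livers, against 8573, 9288 and 8218 in control livers. The groups did not overlap, and the log2 difference was -0.43 ± 0.11 (SE, limma adjusted p = 0.28). In the other complexes the smallest p belonged to Sdhb, the iron-sulphur subunit of complex II (-0.32 ± 0.11), Atp5h of the stalk of complex V (-0.36 ± 0.13), Cox6b1 of complex IV (-0.35 ± 0.13) and Uqcrc2, a core protein of complex III (-0.20 ± 0.10), with limma adjusted p from 0.33 to 0.51. Other strong probe sets differed by -0.22 for Atp5h, -0.16 for Cox6b1 and -0.13 for Uqcrc2. With quantile normalization the medians over the members were nearer 0, at -0.043 in HP pregnancy and -0.067 in HP lactation at day 21, and at -0.059 in each of these groups at day 150.

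At day 150, long after exposure ended, the HP pregnancy minus control difference had a median of -0.14, with 67 of 85 members below 0, against a median of 0.00 over all genes and -0.08 over the strongest other genes. Of all genes 2.63% were called, and 0 of 85 members were, while 21 of 85 members (24.7%) lay below control on all arrays, against 12.9% of all genes and 21.8% of the strongest other genes. The largest differences near the threshold were in complex I. Ndufv1, the core subunit that binds NADH, had signals of 6088, 5712 and 5900 in HP pregnancy livers, against 7538, 9402 and 8988 in control livers. Ndufa10, an accessory subunit, had 4448, 4384 and 5619 in HP pregnancy livers, against 7000, 6210 and 7298 in control livers. For both genes the highest HP pregnancy array was below the lowest control array. The log2 differences were -0.54 ± 0.15 for Ndufv1 (SE, limma adjusted p = 0.057) and -0.51 ± 0.14 for Ndufa10 (adjusted p = 0.053). Ndufc1 (-0.52 ± 0.14), Ndufb10 (-0.40 ± 0.11) and the assembly factor Ndufaf2 (-0.45 ± 0.12) also missed the threshold narrowly, with limma adjusted p of 0.057 to 0.059. The other strong probe set of Ndufc1 differed by -0.01 (limma adjusted p = 0.98), and 2 others of Ndufv1 by -0.58 and -0.32. Outside complex I the smallest p belonged to Atp5g1, which encodes a proton-carrying c subunit of complex V (-0.38), Sdhb (-0.30), Cox6b1 (-0.31, and -0.16 on another set) and Uqcrc1 (-0.27).

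The count of 0 in this comparison depended on single arrays and on the fit. It became 4 members without replicate 2 of control at day 21, 2 without replicate 4 of HP lactation at day 150, 3 without replicate 5 of HP lactation at day 150, and 1 each without replicate 3 of HP lactation at day 21 and replicate 3 of HP pregnancy at day 150. It was 6 without the 2 arrays with Xist signal and 9 with array weights, and all of these members were lower in HP pregnancy. The Gapdh ratio was 1.67 to 1.80 in HP pregnancy and 1.30 to 1.79 in control at day 150. With both control ratios as covariates 0 members were called.

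The HP lactation minus control difference at day 150 had a median of -0.12, with 74 of 85 members below 0, against 0.00 over all genes and -0.07 over the strongest other genes. Of all genes 0.00908% were called, and 0 of 85 members were, while 17 members (20%) lay below control on all arrays, against 6.28% of all genes and 11.5% of the strongest other genes. Without the arrays with Xist signal, 1 of which is in this HP lactation group, the median was -0.20 with 79 of 85 below 0, and 50 members lay below control on all arrays, against 13% of all genes and 35.0% of the strongest other genes. Ndufb6, an accessory subunit of complex I, had signals of 9014, 8694 and 9812 in HP lactation livers, against 12214, 12262 and 12554 in control livers. The groups stood well apart, with a log2 difference of -0.43 ± 0.11 (SE, limma adjusted p = 0.36). Ndufaf5, a complex I assembly factor of low signal, differed by -0.62 ± 0.17 (adjusted p = 0.42), Ndufb10 by -0.35 ± 0.11 and Ndufa2 by -0.33 ± 0.12. Atp5o of the stalk of complex V differed by -0.28 and Sdhc, a membrane anchor of complex II, by -0.32, while a weaker set of Sdhc differed by 0.14.

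**Figure D2:**
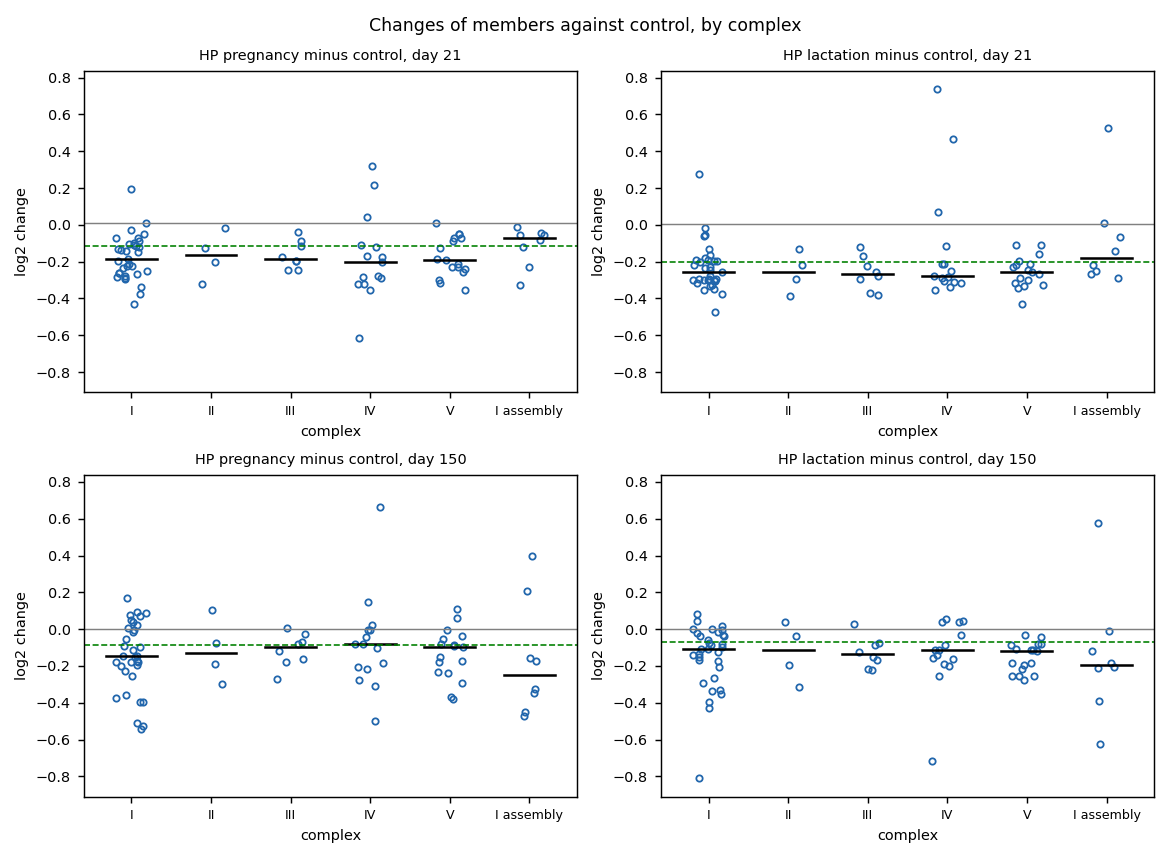
Log2 change against control (y axis) of each of the 85 members, by complex (x axis), in the 4 comparisons with control; circles are genes, black bars medians by complex, the grey line the median of all genes and the dashed line the median of the strongest other genes. No member passed the threshold, and medians of complexes I to V lie between -0.08 and -0.28.

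Ndufaf4 differed in the other direction in HP lactation. Its signals were 4884, 3868 and 3714 in HP lactation livers at day 21, against 2578, 2901 and 3137 in control livers of that day. At day 150 they were 3420, 4303 and 3388 in HP lactation livers, against 2525, 2630 and 2274 in control livers. On both days every HP lactation array was above every control array, with log2 differences of 0.53 ± 0.14 at day 21 (SE, limma adjusted p = 0.11) and 0.57 ± 0.14 at day 150 (adjusted p = 0.36). Another probe set of the gene differed by 0.26 at day 21 and 0.30 at day 150. In HP pregnancy livers the signals were 3151, 2780 and 2614 at day 21, overlapping the range of control. At day 150 they were 2992, 3104 and 3725, above the range of control. The HP pregnancy minus HP lactation difference at day 21 was -0.54 ± 0.14 (limma adjusted p = 0.057), and on the other probe set -0.16 (limma adjusted p = 0.71). At day 150 that other set had a geometric mean of 2451 in HP pregnancy, against 2041 in HP lactation. Without replicate 3 of HP lactation at day 21 or replicate 5 of HP lactation at day 150 the difference of the set used passed the threshold. The change of the HP pregnancy response between the days was 0.41 ± 0.19 (limma adjusted p = 0.999).

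Timing of the exposure was compared directly between the high-protein groups. At day 21 the HP pregnancy minus HP lactation difference had a median of 0.04, with 24 of 85 members below 0 (28.2%), against a median of 0.01 over all genes and 0.07 over the strongest other genes, of which 31.4% were below 0, and 0 members were called, against 1.28% of all genes. Sdha differed by 0.37 ± 0.12 (SE, limma adjusted p = 0.14) on the set used and by -0.01 on its other strong set, so its direction rests on the set. Ndufb2 differed by 0.31 ± 0.13 and Ndufa13 by 0.37 ± 0.17. Cox7a1, the heart and muscle isoform of low signal, had 77.7, 89.3 and 48.9 in HP pregnancy livers, against 98.5, 147 and 212 in HP lactation livers, a difference of -1.06 ± 0.33 (adjusted p = 0.13). At an unadjusted p under 0.05 (limma) there were 5 members at day 21 (5.88%, against 14.9% of all genes) and 11 at day 150 (12.9%, against 17.4%). At day 150 the median was -0.01, with 44 of 85 members below 0, and 0 members were called, against 0.717% of all genes. Without the arrays with Xist signal this median was 0.08, with 28 of 85 below 0. The smallest p belonged to Ndufb6 (0.33 ± 0.11, limma adjusted p = 0.12), Ndufv3 (-0.30 ± 0.11), Atp5md of complex V (0.31 ± 0.12), Ndufaf5 (0.45 ± 0.17) and Ndufa10 (-0.34 ± 0.14).

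The diet responses did not differ detectably between the days. The HP pregnancy response at day 150 minus that at day 21 had a median of 0.05 over the members, and the HP lactation response had one of 0.10. Over the strongest other genes these medians were 0.05 and 0.12, and over the members without the arrays with Xist signal 0.01 and 0.0024. In each of these tests 0 of 85 members were called (limma), against 0.0182% of all genes, and 1 member in each had an unadjusted p under 0.05, against 3.87% of all genes for HP pregnancy and 5.1% for HP lactation. These were Ndufaf4, given above, and Sdha in HP lactation, at 0.43 ± 0.17 (adjusted p = 0.93), or 0.11 on its other strong set.

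The clearest differences lay between the days. Each diet group was compared with itself, day 150 minus day 21, and these 3 comparisons share no arrays. Most calls were in complex I, which holds 33 of the 85 members tested. Of these, 27.3%, 42.4% and 21.2% were called in HP pregnancy, HP lactation and control, against 23.6%, 25.7% and 17.8% of all genes. Of the strongest other genes, 29.7%, 33.2% and 21.9% were called, so complex I exceeded them in HP lactation only. Some accessory subunits of complex I fell and others rose, and few members of complexes III, IV and V were called. In bulk liver, fewer cells of a type and less RNA per cell cannot be told apart.

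In HP pregnancy livers 17 of 85 members were called, 6 higher and 11 lower at day 150, against 23.6% of all genes tested (limma, adjusted p under 0.05). In HP lactation livers 23 were called, 17 higher and 6 lower, against 25.7% of all genes. In control livers 9 were called, 2 higher and 7 lower, against 17.8% of all genes. In all 3 groups the share of members called was near or below that of all genes, and below that of the strongest other genes. By complex, the calls in HP pregnancy were 2 higher and 7 lower in complex I, 1 higher in each of complexes II, IV and V, 1 lower in complex III, and 1 higher and 3 lower among the assembly factors. In HP lactation they were 10 higher and 4 lower in complex I, 1 higher in complex II, 1 higher and 1 lower in complex III, 2 higher in each of complexes IV and V, and 1 higher and 1 lower among the assembly factors. In control livers 1 was higher and 6 were lower in complex I, 1 was higher in complex II and 1 was lower in complex III.

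Single arrays moved these counts. In HP lactation the split of 17 higher and 6 lower became 7 and 7 without replicate 4 of HP lactation at day 150, 8 and 7 without replicate 1 of HP lactation at day 21, and 8 and 6 without replicate 3 of HP lactation at day 21. In HP pregnancy the count of 17 became 8 without replicate 2 at day 150 or without replicate 2 at day 21, and 10 without replicate 3 at day 21. In control the count of 9 became 2 without replicate 2 at day 150, 5 without replicate 2 at day 21, and 6 without replicate 1 or replicate 3 at day 150 or replicate 3 at day 21. Lower calls over all genes were 11.5%, 11.6% and 8.08% and higher calls 12.1%, 14.1% and 9.7% in HP pregnancy, HP lactation and control. Without the arrays with Xist signal the splits were 9 higher and 13 lower in HP pregnancy, 7 higher and 10 lower in HP lactation, and 3 higher and 2 lower in control.

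**Figure D3:**
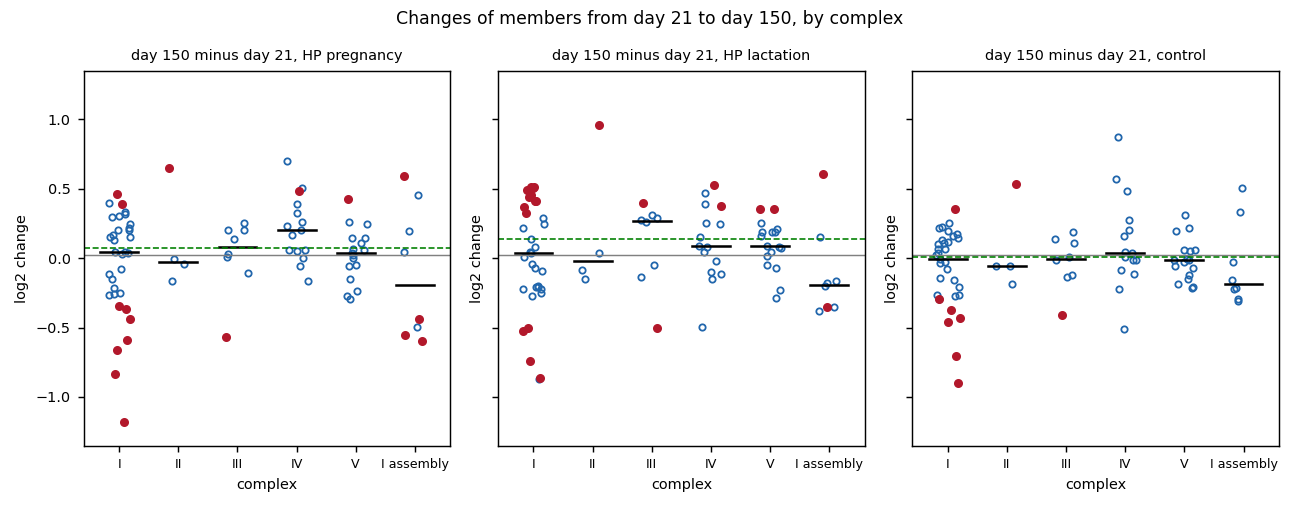
Log2 change from day 21 to day 150 (y axis) of each of the 85 members, by complex (x axis), in HP pregnancy, HP lactation and control livers; filled circles passed an adjusted p of 0.05, black bars are medians by complex, the grey line is the median of all genes and the dashed line that of the strongest other genes. Complex I spreads to both sides, with 7 lower and 2 higher in HP pregnancy, 4 lower and 10 higher in HP lactation, and 6 lower and 1 higher in control.

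On the probe sets used, 7 of the 85 members were called in the same direction in all 3 diet groups (8.24%, against 10.9% of all genes), 5 lower and 2 higher. Without the arrays with Xist signal 4 were, Ndufa10, Ndufb3, Sdha and Ndufaf8 (4.71%, against 8.97% of all genes). With all arrays another 5 were called in 2 groups and 18 in 1, and 0 were called in opposite directions. At least 1 call was made for 30 members (35.3%, against 37% of all genes), and 58 members changed with the same sign in all 3 groups (68.2%, against 66.4%). The changes of all 85 members correlated between comparisons at r = 0.90 for HP pregnancy and control, 0.72 for HP pregnancy and HP lactation, and 0.69 for HP lactation and control. Over all genes these values were 0.80, 0.78 and 0.80, so the members are not set apart by them. Genes are not independent replicates, and each day's arrays share their control ratios.

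Ndufa10, the accessory subunit of complex I that is a relative of deoxynucleoside kinases, had the smallest p of the members that fell. In HP pregnancy livers its signals were 4448, 4384 and 5619 at day 150, against 9718, 11036 and 11919 at day 21. In HP lactation livers they were 7530, 5356 and 5561 at day 150, against 10467, 11551 and 11239 at day 21. In control livers they were 7000, 6210 and 7298 at day 150, against 11744, 14305 and 12326 at day 21. Every day 150 array was below every day 21 array across all diets. On the log2 scale the changes were -1.18 ± 0.14 in HP pregnancy (SE, limma adjusted p = 9.69e-06), -0.87 ± 0.14 in HP lactation (0.000175) and -0.90 ± 0.14 in control (0.000212), and the call held in each group without any 1 of the 18 arrays.

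Ndufa8, an accessory subunit on the intermembrane side of complex I, followed it. Its signals at day 150 were 3707, 3421 and 4690 in HP pregnancy, 4013, 3810 and 4359 in HP lactation, and 5666, 4355 and 5460 in control livers. At day 21 they were 5669, 7566 and 7860 in HP pregnancy, 5848, 6867 and 7766 in HP lactation, and 7329, 10853 and 7293 in control livers. Within each diet group the days did not overlap. The log2 changes were -0.83 ± 0.17, -0.74 ± 0.17 and -0.70 ± 0.17 in HP pregnancy, HP lactation and control (SE, limma adjusted p = 0.0020, 0.0041 and 0.0091). In control the call was lost without replicate 2 of either day (adjusted p = 0.057 each).

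On the probe sets used, Uqcrc1, core protein 1 of complex III, was the only member outside complex I called lower in all 3 groups. Other strong sets changed by -0.50, -0.32 and -0.39 for Atp5h and by -0.57, -0.36 and -0.38 for Atp5d in HP pregnancy, HP lactation and control. With every kept probe set in the fit, their limma adjusted p was 0.0029 to 0.048. The sets used changed by 0.06, 0.16 and -0.06 for Atp5h and -0.15, 0.21 and -0.01 for Atp5d, and were not called. Atp5o of complex V was also lower at day 150 in each group, by -0.23, -0.23 and -0.18 in HP pregnancy, HP lactation and control, without passing the threshold (limma adjusted p 0.096 to 0.22). Another set of Atp5o changed by -0.41, -0.60 and -0.35 in these groups (limma adjusted p = 0.018, 0.0013 and 0.051). Signals of Uqcrc1 at day 150 were 6442, 5251 and 6707 in HP pregnancy, 6171, 6128 and 6745 in HP lactation, and 7816, 7127 and 7172 in control livers. At day 21 they were 8023, 9624 and 9550 in HP pregnancy, 8631, 9367 and 8966 in HP lactation, and 8863, 10797 and 9738 in control livers. Across all diets the highest day 150 array was below the lowest day 21 array. These are log2 changes of -0.57 ± 0.11 in HP pregnancy, -0.50 ± 0.11 in HP lactation and -0.41 ± 0.11 in control (SE, limma adjusted p = 0.0015, 0.0033 and 0.019). In control the call was lost without replicate 2 or replicate 3 of day 150 or replicate 2 of day 21 (adjusted p 0.057 to 0.081).

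Ndufc1, a small membrane subunit of complex I, had signals at day 150 of 10227, 9239 and 14359 in HP pregnancy, 12498, 10303 and 13821 in HP lactation, and 16634, 16869 and 14400 in control livers. At day 21 they were 17337, 17124 and 18050 in HP pregnancy, 15959, 19754 and 16939 in HP lactation, and 21633, 22657 and 20109 in control livers. The days did not overlap within any diet group. Its log2 change was -0.66 ± 0.14 in HP pregnancy, -0.53 ± 0.14 in HP lactation and -0.43 ± 0.14 in control (SE, limma adjusted p = 0.0029, 0.012 and 0.046), and another probe set changed by -0.25, -0.29 and -0.38. The control call was lost without any 1 of the 6 control arrays (adjusted p up to 0.16), without replicate 1 of HP pregnancy at day 150 and without each HP pregnancy array of day 21, and the HP lactation call without replicate 5 of day 150 or replicate 2 of day 21.

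Ndufab1, the mitochondrial acyl carrier protein and a subunit of complex I, fell by 0.44 ± 0.12, 0.51 ± 0.12 and 0.46 ± 0.12 on the log2 scale in HP pregnancy, HP lactation and control (SE, limma adjusted p = 0.016, 0.0062 and 0.015). Its geometric mean signals were 7483, 7460 and 8596 at day 150, against 10136, 10590 and 11849 at day 21, in these groups. The probe set has a suffix that marks probes shared between transcripts. The next set of the gene, of mean signal 941, went the other way by 0.16, 0.37 and 0.24, so the direction for the gene rests on which probe set is read. The control call was lost without replicate 2 of day 150 or of day 21, and the HP pregnancy call without replicate 2 of day 150 or replicates 2 or 3 of day 21 (adjusted p up to 0.082).

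Sdha, the flavoprotein of complex II that oxidises succinate, rose. Its signals at day 150 were 16108, 15076 and 14681 in HP pregnancy, 15439, 14697 and 13819 in HP lactation, and 13838, 15231 and 13700 in control livers. At day 21 they were 11357, 8872 and 9134 in HP pregnancy, 6406, 8316 and 8003 in HP lactation, and 11041, 8928 and 9680 in control livers. All day 150 arrays were above all day 21 arrays, and HP lactation at day 21 was the lowest group. The log2 changes were 0.65 ± 0.12 in HP pregnancy, 0.96 ± 0.12 in HP lactation and 0.53 ± 0.12 in control (SE, limma adjusted p = 0.00088, 1.70e-05 and 0.0055), and each call held without any 1 of the 18 arrays.

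This rise rests on 1 probe set, which also has the suffix for shared probes. The other set of strong signal (mean 11354) gave geometric means of 10756, 12023 and 12535 at day 150, against 10494, 10597 and 11887 at day 21, in HP pregnancy, HP lactation and control. Its changes of 0.04, 0.18 and 0.08 were not called (limma adjusted p 0.17 to 0.83). The other 3 genes of complex II were not called in any age comparison.

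Ndufb3, an accessory subunit in the membrane arm of complex I, had signals at day 150 of 6491, 6701 and 6242 in HP pregnancy, 6778, 6675 and 6772 in HP lactation, and 7653, 7891 and 6553 in control livers. At day 21 they were 4845, 4531 and 4762 in HP pregnancy, 4378, 5780 and 4677 in HP lactation, and 5506, 6193 and 5599 in control livers. All day 150 arrays were above all day 21 arrays, across diets. It rose by 0.46 ± 0.11 in HP pregnancy, 0.46 ± 0.11 in HP lactation and 0.35 ± 0.11 in control on the log2 scale (SE, limma adjusted p = 0.0054, 0.0050 and 0.033). In control the call was lost without replicate 1 or 2 of day 150 or replicate 1 or 3 of day 21 (adjusted p up to 0.14).

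**Figure D4:**
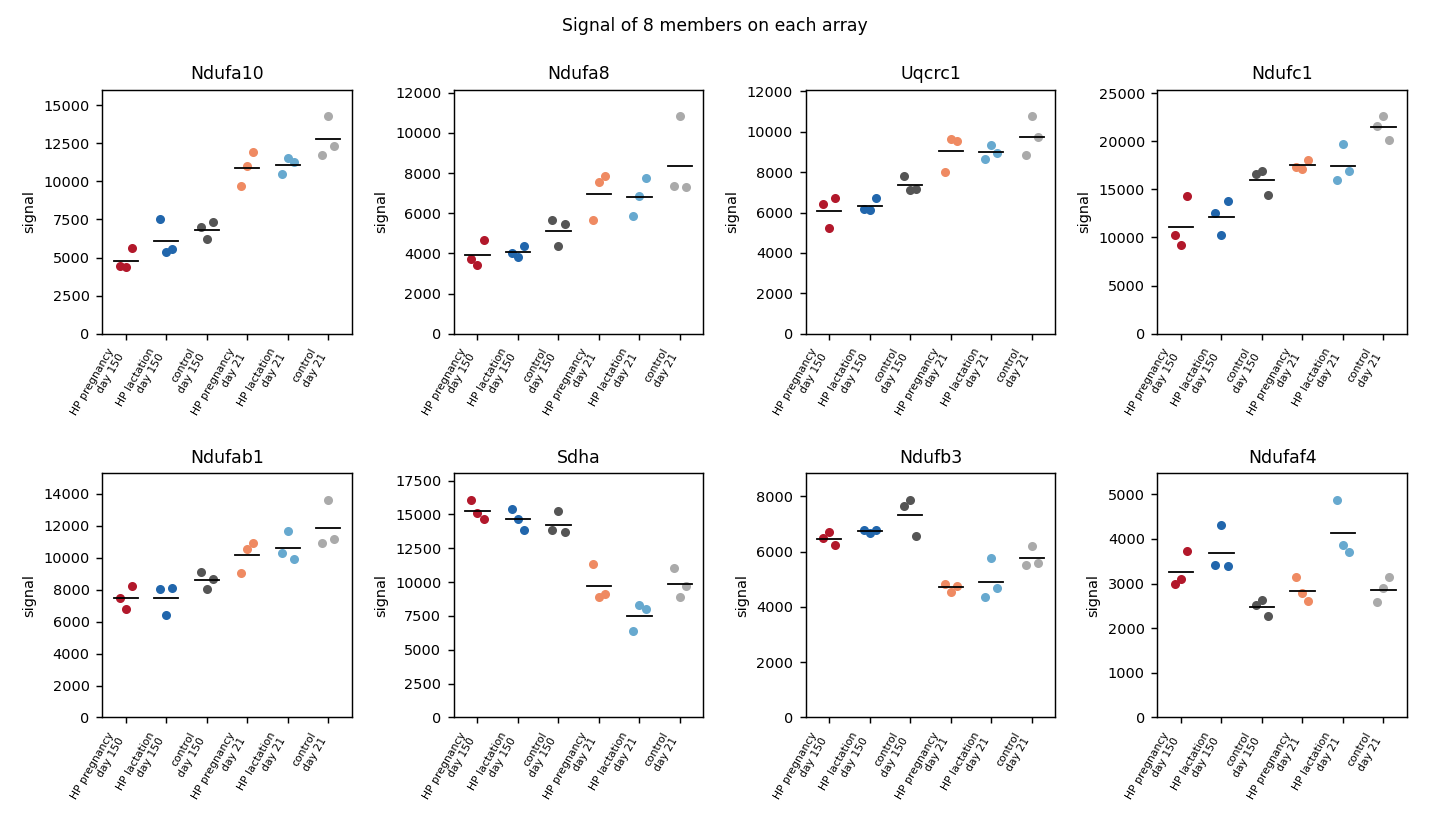
Signal (y axis, from 0) of 8 members on each of the 18 arrays, by diet and day (x axis); points are arrays and bars geometric means of 3. Ndufa10, Ndufa8, Uqcrc1, Ndufc1 and Ndufab1 are lower and Sdha and Ndufb3 higher at day 150 in every diet group, and Ndufaf4 is highest in HP lactation.

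Other members with the smallest p were called in some of the groups. Ndufaf8, an assembly factor that works with Ndufaf5, rose by 0.59 ± 0.15 in HP pregnancy and 0.61 ± 0.15 in HP lactation (SE, limma adjusted p = 0.0066 and 0.0052), and its other set of signal 548 differed by 0.22 and 0.63. Ndufv1 fell by 0.59 ± 0.15 on the log2 scale in HP pregnancy (adjusted p = 0.0077), and the assembly factor Ndufaf2 fell by 0.44 ± 0.12 there (adjusted p = 0.017). Another set of Ndufv1, of mean signal 5704, changed by -0.65, -0.59 and -0.62 in HP pregnancy, HP lactation and control (limma adjusted p = 0.00028, 0.00053 and 0.00062). A further set changed by -0.70, -0.25 and -0.28 (limma adjusted p = 0.0084, 0.33 and 0.32). Whether the fall of Ndufv1 was limited to HP pregnancy thus rests on the set. For Ndufs8, a core subunit of complex I, the set used changed by -0.34, 0.01 and -0.26 in these groups. A set of mean signal 2897 changed by -0.78, -0.45 and -0.50 (limma adjusted p = 0.0013, 0.037 and 0.032). A set of mean signal 12666 changed by -0.05, 0.45 and -0.12, so the direction for Ndufs8 also rests on the set. Ndufa9, an accessory subunit near the coenzyme Q site, fell by 0.37 ± 0.10 in HP pregnancy and by 0.29 ± 0.10 in control. Ndufb7 fell by 0.38 ± 0.11 in control (adjusted p = 0.025), where another set differed by -0.13. Atp5md, a small subunit of the ATP synthase dimer, rose by 0.42 ± 0.12 in HP pregnancy. In HP lactation the accessory subunits Ndufb2 (0.51 ± 0.13), Ndufb11 (0.51 ± 0.13), Ndufa3 (0.49 ± 0.13) and Ndufv3 (0.44 ± 0.11) rose, with limma adjusted p of 0.0065 to 0.0096. The calls of Ndufaf8 and Ndufv1 and of these 4 subunits held without any 1 array. Those of Atp5md and Ndufa9 in HP pregnancy were lost without replicate 2 of day 150 or replicates 2 or 3 of day 21 (Atp5md also without replicate 3 of day 150), and that of Ndufaf2 without replicate 2 of either day. In control Ndufb7 was lost without replicates 2 or 3 of day 150 or replicate 2 of day 21, and Ndufa9 without 10 of the 18 arrays taken singly.

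The medians by complex were close to 0 for most sets. In HP pregnancy, HP lactation and control they were 0.04, 0.03 and -0.01 in complex I, 0.08, 0.27 and -0.01 in complex III, 0.20, 0.09 and 0.04 in complex IV, and 0.03, 0.08 and -0.02 in complex V. The 8 assembly factors of complex I had medians of -0.20, -0.19 and -0.19. The median of all genes tested was 0.02, 0.03 and 0.02, and that of the strongest other genes 0.07, 0.14 and 0.01. Over all members it was 0.05, 0.08 and -0.02, and without the arrays with Xist signal 0.05, -0.02 and 0.05.

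The control ratios bear on all age results because they separate the days without overlap. When the Gapdh and Actb ratios entered the fit as covariates, 0 members were called in each group, and 3, 19 and 59 genes of all tested were called in HP pregnancy, HP lactation and control. In that fit Ndufa10 changed by -1.01, -0.71 and -0.81 in these groups, Ndufa8 by -0.41, -0.33 and -0.46, and Sdha by 0.14, 0.43 and 0.20. The signs of all 7 recurrent members stayed, while Ndufb2, Ndufb11 and Ndufa3, called higher in HP lactation above, turned to -0.08, -0.16 and -0.29. The median over the members was -0.21, -0.19 and -0.20. Day and ratio are nearly the same variable here, so age and RNA quality cannot be told apart by this fit.

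**Figure D5:**
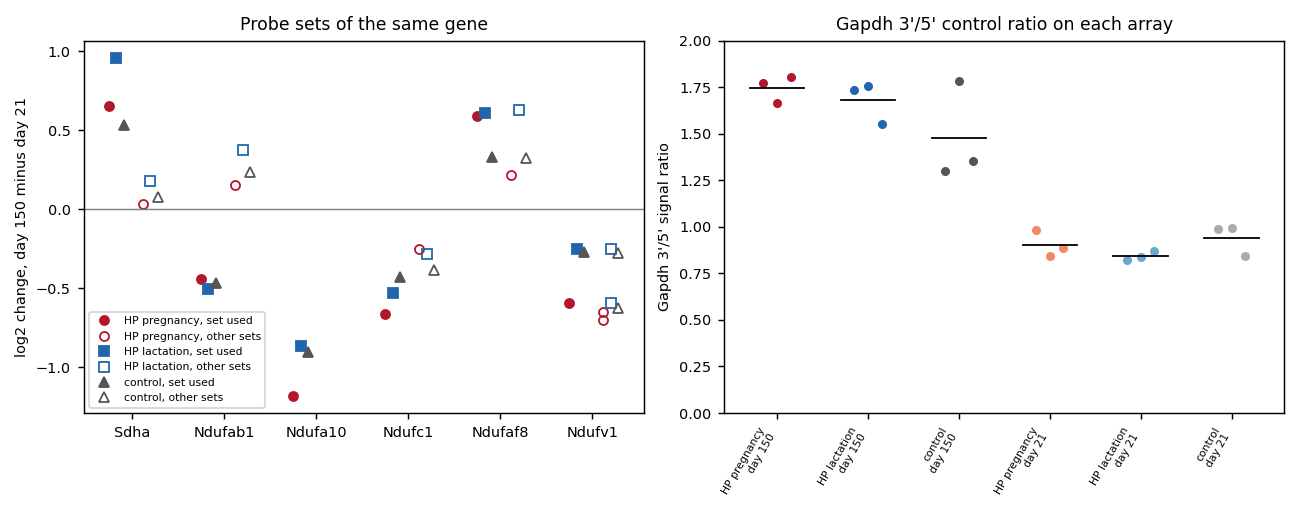
Left, log2 change from day 21 to day 150 (y axis) of the probe set used (filled) and of the other kept sets of mean signal above 500 (open) for 6 members (x axis), by diet group. Right, the Gapdh 3′ to 5′ ratio (y axis) on each array by group (x axis); Sdha and Ndufab1 differ between their probe sets, and the ratio is 1.30 to 1.80 at day 150 and 0.82 to 0.99 at day 21.

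Genes that work beside the complexes were counted for the same age comparisons, in the order HP pregnancy, HP lactation and control. Of all genes tested 11.5%, 11.6% and 8.08% were called lower and 12.1%, 14.1% and 9.7% higher. Of 8 electron carriers and feeders outside the symbol rule, 3, 3 and 2 fell and 0 rose. Among these were Gpd2, the mitochondrial glycerol phosphate dehydrogenase (-1.87, -1.83 and -1.69), and Etfdh, which passes electrons from fatty acid oxidation to coenzyme Q (-0.66, -0.55 and -0.75). Of 13 citric acid cycle genes, 6, 6 and 4 fell and 0 rose, with Idh3a at -0.90, -1.39 and -0.87. Of 11 genes of coenzyme Q synthesis, 5, 2 and 2 fell and 1, 1 and 0 rose, and of 35 other assembly factors 4, 6 and 3 fell and 3, 4 and 1 rose. Of 16 regulators of mitochondrial biogenesis 2, 2 and 1 fell and 0, 0 and 1 rose. ND5, the subunit of complex I read from the mitochondrial genome, changed by 0.04, 0.01 and -0.14 and was not called.

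In the HP pregnancy minus control comparison at day 150, 0 members were called. Called lower were 1.11% of all genes and 23 of the 1031 strongest other genes. Of 35 other assembly factors, 16 regulators of mitochondrial biogenesis, 8 mitochondrial carriers and porins and 8 electron carriers and feeders, 0 were called. In the same comparison 2 of 11 genes of coenzyme Q synthesis and 1 of 13 citric acid cycle genes were lower. These were Coq8a (-0.69 ± 0.17, SE, limma adjusted p = 0.041), Coq2 (-0.51 ± 0.13, adjusted p = 0.045) and Idh2 (-0.59 ± 0.13, adjusted p = 0.029).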

How the data were processed

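Liver RNA pools were hybridised to Affymetrix mouse arrays, and the deposited intensity of each probe set is a signal made with MAS5 in GCOS 1.4, per the submitters' processing notes. The trimmed mean of every array is near 500 (499.76 to 499.80), so the authors' values are globally scaled. Gene symbols came from the platform annotation, and only probe sets with 1 symbol were used. Genes were tested with limma 3.58.1 in R 4.3.3 (lmFit, eBayes with trend) on the log2 of the deposited signal over all 18 arrays, 1 probe set a gene, for probe sets at or above the median signal (57.5), with two-sided p and Benjamini-Hochberg adjustment over 11018 genes, and calls were made at an adjusted p under 0.05. The 11 comparisons were 6 between diets, 3 between days and 2 of responses. Array number limits the precision.

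The members and gene lists were chosen with earlier results of these data known, so lists are described by counts and medians. The members named per comparison are those past the threshold up to 12, or the smallest p up to 5 and the smallest in each complex. Promoter letters came from RefSeq (GRCm38.p6), for 74 of 90 members. The code was tested on simulated data. Arrays of equal replicate number did not deviate together, with a mean correlation of -0.019 over 30 pairs (-0.11 to 0.10), so the numbers were not taken as pairs. Alternatives covered the filter, the scaling, the probe set, the variance model, single arrays and the control ratios.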

Additional observations from a re-analysis of the deposited data

How the results depend on the processing

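In 33 alternative settings the 0 calls in HP pregnancy and HP lactation against control at day 21, in HP lactation against control at day 150, in HP pregnancy against HP lactation at day 150 and in both tests of responses did not change. In HP pregnancy against control at day 150 the count of 0 became 9 with array weights, 5 with a filter at the 70th percentile, 4 with quantile normalization, 2 with the replicate block, 2 with the compared arrays alone, 7 at an adjusted p under 0.10, 6 without the arrays with Xist signal, and 0 to 4 without single arrays. In HP pregnancy against HP lactation at day 21 it became 1 (Ndufaf4) with array weights, the 70th percentile filter, quantile normalization or an adjusted p under 0.10, and 0 to 1 without single arrays. Replicate numbers do not pair these arrays, and no block could be used for HP lactation at day 150, whose numbers differ.

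The counts between days were 0 in all 3 groups with the control ratios as covariates. In control the count of 9 became 14 with array weights, quantile normalization or an adjusted p under 0.10, 5 with equal 75th percentiles, 5 without the arrays with Xist signal and 2 to 10 without single arrays. In HP pregnancy the count of 17 became 36 with array weights, 33 over every kept probe set, 26 with quantile normalization, 27 at an adjusted p under 0.10 and 8 to 21 without single arrays. In HP lactation the count of 23 became 38 over every kept probe set, 15 with no filter, 8 with the compared arrays alone and 14 to 25 without single arrays. Splits moved too: quantile normalization gave 7 higher and 7 lower in control, equal 75th percentiles 9 higher and 5 lower in HP pregnancy, and centring on the strongest genes 12 higher and 11 lower in HP lactation. The cause was not tested.

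The median of the members in HP lactation against control at day 21 was -0.38 with equal 75th percentiles, -0.067 with quantile normalization and -0.094 with the strongest genes centred, and that in HP pregnancy against control at day 21 was -0.043 with quantile normalization. Equal 75th percentiles shifted the median of all genes by -0.13 in HP lactation against control at day 21, and centring the strongest genes shifted it by 0.16 there and by 0.10 in HP pregnancy against control. The medians between days were -0.21, -0.19 and -0.20 in HP pregnancy, HP lactation and control with the control ratios as covariates, and -0.029 in HP lactation with quantile normalization. The median of the change in the HP lactation response was -0.0089 with the strongest genes centred.

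With probe sets lacking a shared-probe suffix preferred, Ndufab1 between days was 0.16, 0.37 and 0.24 in HP pregnancy, HP lactation and control, and Sdha in HP pregnancy against HP lactation at day 21 was -0.014. With the control ratios as covariates, Ndufb2, Ndufb11 and Ndufa3 between days in HP lactation were -0.078, -0.16 and -0.29. Of 2350 other values of the 72 named members and comparisons, 2184 kept direction and side of the threshold.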

Other observations

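Among the genes beside the complexes, Slc25a4, a carrier that exchanges ADP and ATP across the inner membrane, differed between the days by more than any member. Its signals in HP pregnancy livers were 245 to 442 at day 150, against 2021 to 2592 at day 21. In HP lactation livers they were 223 to 424 at day 150, against 4213 to 6623 at day 21, and in control livers 313 to 536 at day 150, against 2396 to 2635 at day 21. The log2 changes were -2.74, -4.12 and -2.68 (SE 0.25 each, limma adjusted p = 6.22e-07, 2.50e-09 and 8.10e-07). At day 21 the HP pregnancy minus HP lactation difference was -1.14 (limma adjusted p = 0.029). Idh3a, a subunit of isocitrate dehydrogenase, differed in the same comparison by -0.66 (limma adjusted p = 0.017), with 2163 to 2755 in HP pregnancy livers and 3533 to 4629 in HP lactation livers.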
